A study of Mus musculus with 77 samples.

Results

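Granins and prohormone processing enzymes are the cargo and the tools of the dense core vesicle. The 10 genes described here are 6 granins or granin-like proteins (Vgf, Scg2, Scg3, Scg5, Chga and Chgb), the prohormone convertases Pcsk1 and Pcsk2, the convertase inhibitor precursor Pcsk1n and the carboxypeptidase Cpe. They were chosen by symbol, with earlier results of these data known, taking every probe set annotated to that symbol alone. Counts of called genes beside the share over all genes are therefore a description only. A probe set was found for 9 of the 10, out of 18194 genes with such a probe set, and Pcsk2 was not analysed here. All 9 passed the filter on low values, which left 13271 genes for testing. Each of the 9 has a single probe set except Cpe, whose second one lay between 2.02 and 2.73 on the log2 scale on all arrays, below the filter. In RefSeq (GRCm38.p6) the 4 genes that moved most lie at chr5:137025301-137033351 (Vgf), chr1:79434366-79440026 (Scg2), chr12:102554941-102565027 (Chga) and chr13:75089420-75134861 (Pcsk1). Values are log2 expression per probe set, and levels are compared between groups for the same probe set only. Wherever groups are said not to overlap, the share of all genes that separate in that way was not computed.

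Each of the 77 arrays held messenger RNA taken from the dorsal striatum of a single mouse by translating ribosome affinity purification, in which a ribosomal protein fused to green fluorescent protein (EGFP-L10a) is pulled down with its bound RNA. All mice were hemizygous transgenic males on the C57BL/6J background, aged 9 to 14 weeks. The tag was driven from a bacterial artificial chromosome by Drd1 regulatory sequence (line CP73, direct pathway spiny projection neurons, dSPN) or by that of Drd2 (line CP101, indirect pathway spiny projection neurons, iSPN). Each label refers to a single transgenic line. Dopamine neurons had been destroyed on the right side with 6-hydroxydopamine (3.2 µg/µl) in the medial forebrain bundle, and lesioned mice were kept for the study by their behaviour. Mock-lesioned mice had received the ascorbate and saline vehicle, and tissue came from the operated side. In dSPN there were 11 arrays from lesioned mice given saline, 12 from lesioned mice on low-dose levodopa, 11 from lesioned mice on high-dose levodopa and 10 from mock-lesioned mice given saline. In iSPN the same groups held 7, 8, 8 and 10 arrays. Levodopa was injected daily together with benserazide, a blocker of its breakdown outside the brain. Mice on the low dose received 1 mg/kg for days 1 to 3, then 2 mg/kg through days 4 to 9. Those on the high dose got 3 mg/kg in the first period followed by 6 mg/kg in the second. Severe involuntary movements (dyskinesia) were anticipated by the submitters at the high dose, and restored limb use without them at the low dose.

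Granins are acidic proteins that condense in the trans-Golgi network, help dense core granules to form and are themselves cut into peptides. Prohormone convertases then cleave granins and neuropeptide precursors after paired basic residues inside the maturing granule, and Cpe trims the basic residues that remain. Spiny projection neurons release opioid and tachykinin peptides beside GABA. Dopamine raises cyclic AMP in dSPN through Drd1 receptors and lowers it in iSPN through Drd2 receptors, and several granin and convertase genes are known targets of cyclic AMP and neuronal activity through the cyclic AMP response element, TGACGTCA.

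Promoter sequence was at hand in RefSeq (GRCm38.p6) for 8 of the 10 genes, namely Scg2, Scg3, Scg5, Chga, Chgb, Pcsk1, Pcsk1n and Pcsk2. Vgf and Cpe were not matched. Each has 1 entry, read here as the 250 bases before the transcript start that the promoter table uses. In Pcsk1 and Scg3 that start, and the window before it, lie inside the gene's annotated span, and in the other 6 the window ends where the gene begins. The whole element TGACGTCA stood in 3 of the 8 windows, against 1.55% of 32851 promoter entries of the same length, in which some genes have several. It lay at bases -68 to -61 in Scg2, -72 to -65 in Chgb and -78 to -71 in Pcsk1, counted back from the start the table uses. The core TGACG or its reverse complement CGTCA, which is also part of the whole element, stood in 7 of the 8, against 17.8% of promoters, and Pcsk1n held none. An AP-1 element (TGAGTCA or TGACTCA) stood in Pcsk1n alone of the 8 (4.46% of promoters), and an EGR element (GCGTGGGCG or CGCCCACGC, 0.536% of promoters) in none. A match of letters is not evidence of binding. The 4 sequences below are those of the 2 genes with the whole element that rose most with levodopa, of Chgb, which has it and moved little, and of Chga, which has the core. Capitals mark the whole element and the core on the strand shown.
Scg2, chr1:79440027-79440276, minus strand: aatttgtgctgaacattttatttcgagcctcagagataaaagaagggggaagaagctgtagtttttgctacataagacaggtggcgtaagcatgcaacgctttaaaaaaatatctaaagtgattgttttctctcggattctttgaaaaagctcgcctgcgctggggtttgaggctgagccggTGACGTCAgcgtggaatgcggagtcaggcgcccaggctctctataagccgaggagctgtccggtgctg
Pcsk1, chr13:75089607-75089856, plus strand: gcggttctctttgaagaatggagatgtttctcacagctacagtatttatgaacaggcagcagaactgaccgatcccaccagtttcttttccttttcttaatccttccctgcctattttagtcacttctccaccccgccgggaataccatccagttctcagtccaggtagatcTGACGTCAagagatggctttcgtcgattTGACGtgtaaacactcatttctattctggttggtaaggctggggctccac
Chgb, chr2:132781392-132781641, plus strand: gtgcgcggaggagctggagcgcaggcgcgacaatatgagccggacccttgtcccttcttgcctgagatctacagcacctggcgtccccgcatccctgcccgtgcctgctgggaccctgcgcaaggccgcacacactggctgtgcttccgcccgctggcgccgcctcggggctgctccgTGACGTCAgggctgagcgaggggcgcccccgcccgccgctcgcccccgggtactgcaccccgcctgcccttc
Chga, chr12:102554691-102554940, plus strand: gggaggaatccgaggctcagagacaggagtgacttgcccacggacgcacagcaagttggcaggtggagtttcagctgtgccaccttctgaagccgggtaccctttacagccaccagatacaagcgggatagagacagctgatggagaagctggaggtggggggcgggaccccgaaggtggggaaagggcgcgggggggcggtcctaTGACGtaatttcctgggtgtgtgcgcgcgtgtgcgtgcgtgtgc

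The arrays carried the markers of their lines. Drd1 lay at 11.11 or above on every dSPN array, against 10.54 or below on every iSPN array, and Drd2 lay at 8.08 or below on every dSPN array, against 11.90 or above on every iSPN array. RNA of other cells came down as well and moved with the drug. The mean of 10 tested oligodendrocyte markers ran over 6.02 to 7.21 on low-dose and 6.00 to 7.23 on high-dose dSPN arrays, against 7.20 to 8.42 on dSPN arrays of lesioned mice given saline. Of these markers 9 fell at either dose in dSPN, as did 5 (low) and 6 (high) of 10 astrocyte markers and 4 (low) and 5 (high) of 6 tested iSPN markers. Over all genes 19% fell at the low dose and 25.5% at the high dose. In iSPN no oligodendrocyte or astrocyte marker passed the test by limma for levodopa against saline. The mean of 3 tested cholinergic interneuron markers lay between 3.75 and 4.50 on mock-lesioned dSPN arrays, against 4.69 to 6.17 on mock-lesioned iSPN arrays. On lesioned iSPN arrays it averaged 5.64 with saline, 5.76 at the low dose and 5.69 at the high dose, against 5.15 after mock lesion, with overlap. Cholinergic interneurons also use Drd2. The part of other cells in each result was not tested beyond a fit that holds the oligodendrocyte mean as a covariate. In dSPN that mean nearly separated drug from saline arrays, so the fit cannot tell the drug from that RNA there. Fewer cells of a type and less RNA per cell cannot be told apart in such samples. The array numbers in the titles fall into 7 stretches whose meaning no label explains. Each stretch lies in 1 line, so values with stretch as a block are given where they end a call.

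Loss of dopamine moved Vgf and Scg2 in opposite directions in the 2 cell types. Vgf, the precursor of several secreted peptides and a gene classically induced by neurotrophins, fell 4.40-fold in dSPN and rose 3.15-fold in iSPN. Scg2 encodes secretogranin II, the precursor of the peptide secretoneurin, and it fell 1.68-fold in dSPN and rose 3.73-fold in iSPN. Scg3, a granin that holds other granins at the vesicle membrane, rose 1.74-fold in dSPN. No other gene of the 9 passed the test after lesion in either line.

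Vgf in dSPN had a lowest, median and highest level of 6.42, 6.77 and 8.69 on the 11 arrays of lesioned mice, against 8.45, 9.15 and 9.67 on the 10 arrays of mock-lesioned mice. Of the lesioned arrays, 10 lay below every mock-lesioned array, and 1 (replicate 6) stood apart from the next highest of its group, at 7.72. The change was -2.14 ± 0.17 (SE, adjusted p = 3.74e-15), the second lowest of the 13271 genes tested. Scg2 in dSPN read 8.33, 8.86 and 9.70 after lesion, against 8.95, 9.81 and 10.00 after mock lesion. The groups overlapped, with 6 of 11 lesioned arrays below every mock-lesioned one, and the change was -0.75 ± 0.13 (SE, adjusted p = 3.39e-05). Scg3 read 8.08, 8.72 and 8.98 after lesion, against 7.51, 7.77 and 8.05 after mock lesion, with every lesioned array above every mock-lesioned one. Its change was 0.80 ± 0.16 (SE, adjusted p = 6.69e-04), and with the stretch as a block it was 0.75 (adjusted p = 0.0774).

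In all, 3 of 9 genes were called in dSPN after lesion (1 higher and 2 lower), where 2.48% of all genes tested were called (0.64% higher and 1.84% lower). Their median change was -0.13, against -0.0022 over all genes. Within the only stretch that held both groups, 5 lesioned and 4 mock-lesioned arrays differed by -2.14 for Vgf, -0.73 for Scg2 and 0.86 for Scg3. Chga, chromogranin A, averaged 8.95 ± 0.42 after lesion and 8.39 ± 0.20 after mock lesion (SD, n = 11 and 10). It had 8 of 11 lesioned arrays above every mock-lesioned one and 1 below them all, and the change of 0.56 ± 0.20 (SE) had an adjusted p of 0.143. That change passed when dSPN was fitted on its own arrays (adjusted p = 0.0049) and with array weights (adjusted p = 0.0234). It passed under none of the other alternatives, and the highest adjusted p among the 8 was 0.555. Pcsk1, Chgb, Scg5, Pcsk1n and Cpe changed by -0.18 to 0.11, with adjusted p of 0.599 or above.

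**Figure D1:**
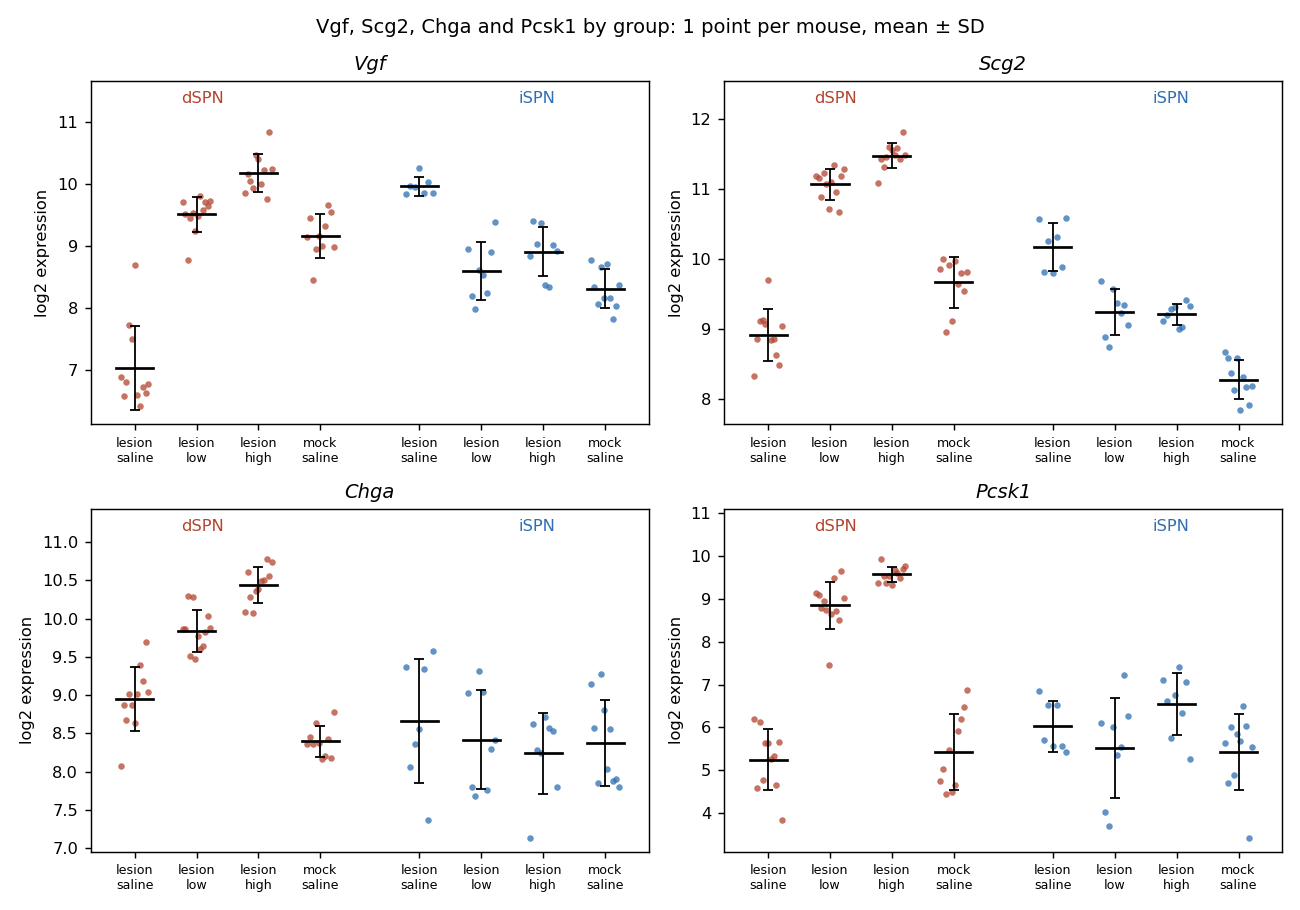
Log2 expression of Vgf, Scg2, Chga and Pcsk1 (vertical axes) on each array in 8 groups (horizontal axes), with dSPN in red and iSPN in blue. Bars give the mean and SD. In dSPN, Vgf lay between 6.42 and 8.69 after lesion with saline and between 9.76 and 10.85 on high-dose levodopa, while in iSPN it lay between 9.84 and 10.26 after lesion with saline, above all other iSPN arrays.

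In iSPN, Vgf read 9.84, 9.95 and 10.26 (lowest, median and highest) on the 7 arrays of lesioned mice, against 7.82, 8.25 and 8.77 on the 10 arrays of mock-lesioned mice. Scg2 read 9.80, 10.26 and 10.58 after lesion, against 7.84, 8.25 and 8.67 after mock lesion. For both genes the 2 groups did not overlap, and the lesioned arrays were the higher. The change was 1.65 ± 0.20 for Vgf (SE, adjusted p = 2.38e-09) and 1.90 ± 0.14 for Scg2 (SE, adjusted p = 2.11e-17), which put Scg2 at rank 12 of 13271 from the top. These were the 2 of 9 genes called, both higher, where 6.2% of all genes were called (3.19% higher and 3.01% lower), and the median change of the 9 was 0.21, against -0.006 over all genes. No stretch held enough arrays of both groups for a value within it. With the stretch as a block both calls held, the highest adjusted p among 8 alternatives being 0.0019 for Vgf and 1.33e-07 for Scg2. The mean of 9 dSPN markers ran over 6.38 to 7.30 on these lesioned iSPN arrays, against 6.85 to 7.80 on the mock-lesioned ones, and 4 of the 9 fell.

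Pcsk1 in iSPN averaged 6.03 ± 0.59 after lesion and 5.43 ± 0.88 after mock lesion (SD, n = 7 and 10), a change of 0.59 ± 0.36 (SE) with an adjusted p of 0.387. Its 95% interval ran over -0.12 to 1.31. Scg3 changed by 0.03 ± 0.18 (SE) in iSPN. The difference between lines in the effect of lesion was called for Vgf (-3.79 ± 0.26, SE, adjusted p = 8.83e-19), Scg2 (-2.65 ± 0.19, SE, adjusted p = 2.33e-18) and Scg3 (0.77 ± 0.24, SE, adjusted p = 0.0444). That is 3 of 9 genes, where 4.86% of all genes were called (1.65% more positive in dSPN and 3.21% less so). The Scg3 difference lost its call with the stretch as a block, where it was 1.11 (adjusted p = 0.138), with no filter on low values (0.77, adjusted p = 0.0574), with the oligodendrocyte covariate (0.74, adjusted p = 0.0710) and on leaving out any 1 of 23 of the 38 arrays.

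Levodopa raised the convertase Pcsk1 and the granins Vgf, Scg2 and Chga in dSPN. Pcsk1, which makes the first cuts in many prohormones, was 12.1-fold higher at the low dose and 19.9-fold higher at the high dose than in lesioned mice given saline. Vgf was 5.61-fold and 8.87-fold higher, Scg2 4.44-fold and 5.90-fold higher and Chga 1.85-fold and 2.80-fold higher. Scg5, which chaperones the convertase encoded by Pcsk2, and Cpe fell 1.25-fold to 1.39-fold at both doses. Chgb, chromogranin B, rose 1.25-fold at the high dose.

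Pcsk1 in dSPN read 3.85, 5.33 and 6.20 on saline arrays of lesioned mice, 7.45, 8.87 and 9.64 on low-dose arrays and 9.32, 9.53 and 9.91 on high-dose arrays. The drug groups lay wholly above the saline group, and the saline group lay within the spread of mock-lesioned arrays (4.45, 5.25 and 6.87) apart from its lowest array. The change was 3.59 ± 0.30 at the low dose (SE, adjusted p = 2.45e-16) and 4.31 ± 0.31 at the high dose (SE, adjusted p = 5.84e-20). Both ranked 17 of 13271 genes from the top. The SD across arrays was 0.18 at the high dose and 0.55 at the low dose, against 0.71 with saline.

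Vgf in dSPN read 6.42, 6.77 and 8.69 with saline, 8.77, 9.56 and 9.81 at the low dose and 9.76, 10.16 and 10.85 at the high dose, with neither drug group overlapping saline. Its change was 2.49 ± 0.17 at the low dose (SE, adjusted p = 2.91e-21) and 3.15 ± 0.17 at the high dose (SE, adjusted p = 1.59e-26). Scg2 read 8.33, 8.86 and 9.70 with saline, 10.68, 11.13 and 11.34 at the low dose and 11.09, 11.48 and 11.82 at the high dose. Its drug groups also lay wholly above saline, by 2.15 ± 0.12 at the low dose (SE, adjusted p = 1.83e-25) and 2.56 ± 0.12 at the high dose (SE, adjusted p = 1.65e-29). Chga read 8.08, 9.02 and 9.70 with saline, 9.47, 9.84 and 10.30 at the low dose and 10.07, 10.49 and 10.77 at the high dose. Only the high-dose group lay wholly above saline, and 8 of 12 low-dose arrays did. The change in Chga was 0.88 ± 0.19 at the low dose (SE, adjusted p = 1.61e-04) and 1.49 ± 0.20 at the high dose (SE, adjusted p = 1.66e-09).

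At the low dose 7 of 9 genes were called in dSPN (4 higher and 3 lower), and 34.1% of all genes were called (15.1% higher and 19% lower). At the high dose 7 of 9 were called (5 higher and 2 lower), and 45.6% of all genes were called (20.1% higher and 25.5% lower). The median change of the 9 was 0.08 at the low dose and 0.32 at the high dose, against -0.04 over all genes at either dose. Within the stretch that held 9 high-dose and 6 saline arrays the differences were 4.17 for Pcsk1, 2.92 for Vgf, 2.45 for Scg2 and 1.45 for Chga. No stretch held low-dose and saline dSPN arrays together. With the oligodendrocyte mean as a covariate, the low-dose change of Chga was 0.48 (adjusted p = 0.143) and the high-dose change of Chgb was 0.09 (adjusted p = 0.565), while Pcsk1, Vgf and Scg2 held their calls at both doses under all 8 alternatives.

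The RNA of the sorting and trimming genes moved less. Scg5 averaged 9.70 ± 0.26 at the low dose and 9.71 ± 0.22 at the high dose, against 10.13 ± 0.15 with saline (SD, n = 12, 11 and 11). Its change was -0.43 ± 0.11 (SE, adjusted p = 8.89e-04) and -0.42 ± 0.11 (SE, adjusted p = 9.38e-04). Cpe averaged 10.95 ± 0.24 and 11.10 ± 0.19 at the low and high dose, against 11.43 ± 0.26 with saline, a change of -0.48 ± 0.09 (SE, adjusted p = 2.19e-05) and -0.33 ± 0.09 (SE, adjusted p = 0.0029). In Scg5 and Cpe the groups overlapped. Oligodendrocyte and astrocyte markers fell on the same arrays, as given above, and the calls of both genes held at both doses with the oligodendrocyte covariate. That mean hardly overlapped between drug and saline arrays, so the fit cannot tell a change in these genes from a loss of such RNA. Astrocyte markers were not used as a covariate.

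Scg3 averaged 8.12 ± 0.29 at the low dose and 8.27 ± 0.28 at the high dose, against 8.57 ± 0.31 with saline. The low-dose change of -0.45 ± 0.15 (SE, adjusted p = 0.0149) lost its call with the stretch as a block (-0.43, adjusted p = 0.275) and with the oligodendrocyte covariate (-0.39, adjusted p = 0.152), and the high-dose change of -0.30 ± 0.15 (SE) had an adjusted p of 0.106. Pcsk1n, the precursor of the convertase inhibitor proSAAS, changed by -0.31 ± 0.13 (SE, adjusted p = 0.0538) and -0.30 ± 0.13 (SE, adjusted p = 0.0559) at the low and high dose. It passed at the low dose under 6 of 8 alternatives and at the high dose under 4 of 8. Chgb changed by 0.08 ± 0.09 at the low dose (SE, adjusted p = 0.484) and by 0.32 ± 0.09 at the high dose (SE, adjusted p = 0.0016).

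**Figure D2:**
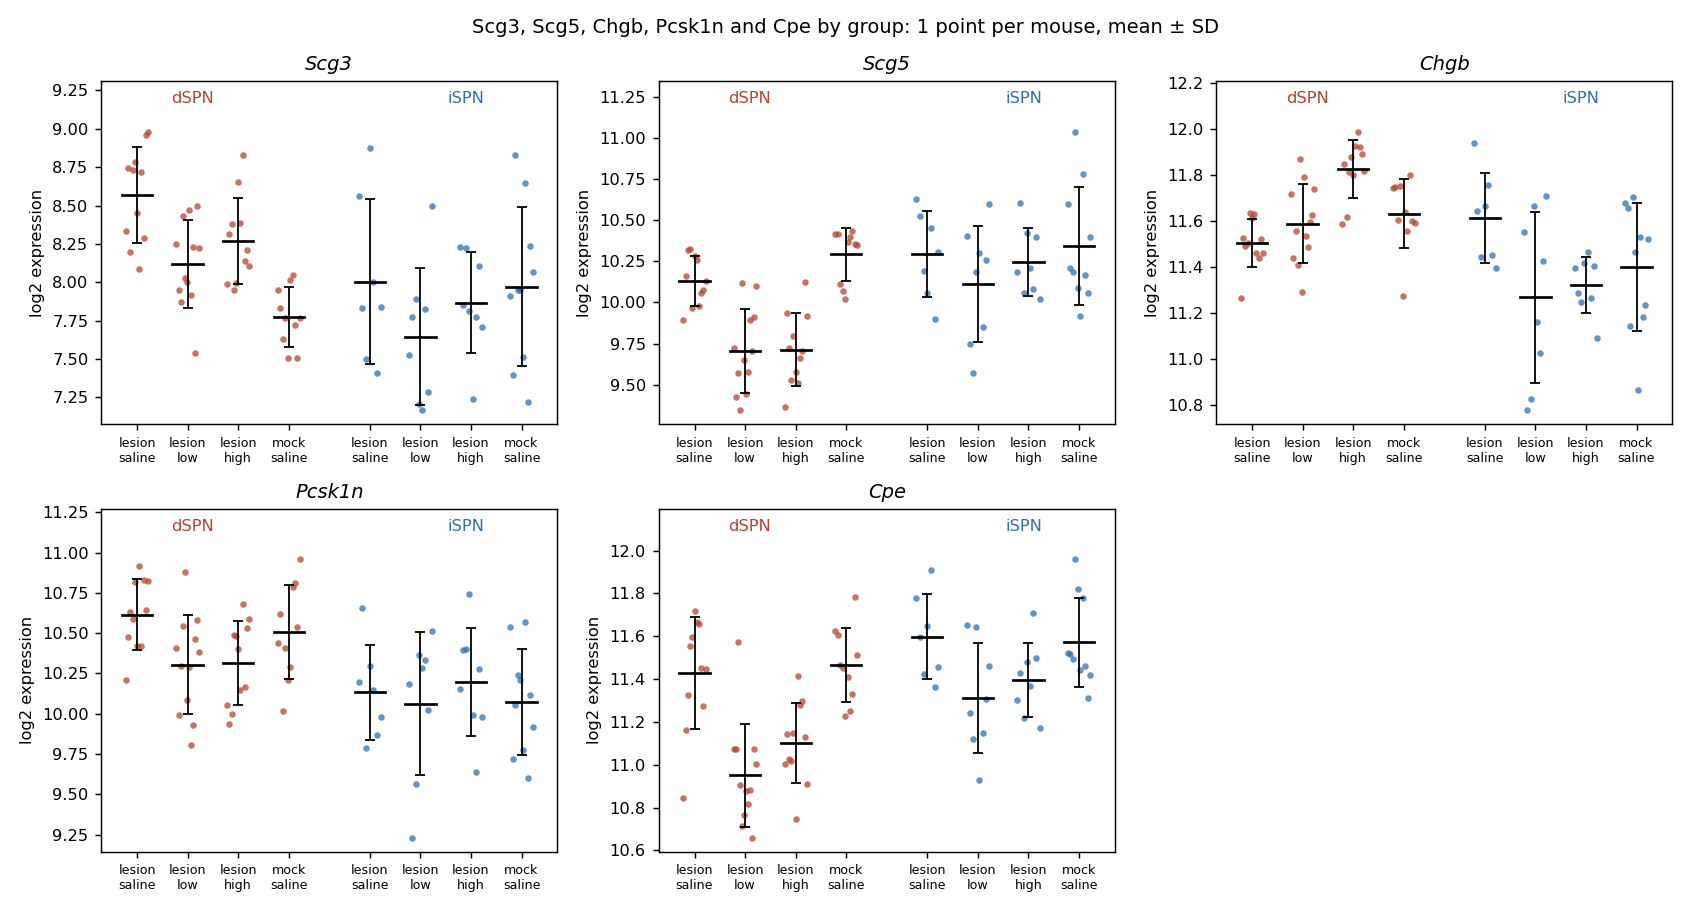
Log2 expression of Scg3, Scg5, Chgb, Pcsk1n and Cpe (vertical axes) on each array in 8 groups (horizontal axes), with dSPN in red and iSPN in blue, and bars at the mean and SD. Group means of each gene spanned less than 1, the widest being 0.92 for Scg3, and Scg3 in dSPN lay wholly higher after lesion with saline (8.08 to 8.98) than after mock lesion (7.51 to 8.05).

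In dSPN 3 granins were higher at the high dose than at the low dose. Between the high and the low dose, Vgf differed by 0.66 ± 0.17 (SE, adjusted p = 0.0067), with 10 of 11 high-dose arrays above every low-dose array. Scg2 differed by 0.41 ± 0.12 (SE, adjusted p = 0.0219), with 9 of 11 above, and Chga by 0.60 ± 0.19 (SE, adjusted p = 0.0420), with 8 of 11 above. Pcsk1 differed by 0.72 ± 0.30 (SE, adjusted p = 0.153, 95% interval 0.11 to 1.33). Chgb, another granin, differed by 0.24 ± 0.09 (SE, adjusted p = 0.0796), with 5 of 11 above. It was called with the stretch as a random block (adjusted p = 0.0338) and with dSPN fitted alone (adjusted p = 0.0102). Vgf, Scg2 and Chga were the 3 of 9 genes called as reported, where 6.8% of all genes were called (3.14% higher and 3.66% lower). With the stretch as a block none of the 3 was called (adjusted p = 0.0584 for Vgf, 0.112 for Scg2 and 0.485 for Chga), although the differences were then 0.90, 0.58 and 0.57. Only 2 high-dose and 11 low-dose arrays shared a stretch, and there the differences were 1.14 for Vgf, 0.64 for Scg2 and 0.66 for Chga. The call of Scg2 was lost without high-dose replicate 10. That of Chga was lost without any 1 of 15 of the 23 arrays, with no filter (adjusted p = 0.0514) and after renewed quantile normalization (0.0570).

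In iSPN levodopa lowered Vgf and Scg2 and left Pcsk1 and Chga without a call. Vgf read 9.84, 9.95 and 10.26 with saline, 7.99, 8.57 and 9.39 at the low dose and 8.34, 8.97 and 9.40 at the high dose. Scg2 read 9.80, 10.26 and 10.58 with saline, 8.74, 9.29 and 9.69 at the low dose and 9.00, 9.25 and 9.41 at the high dose. Every drug array of both genes lay below every saline array, and the share of all genes that separate in this way was not computed. Vgf changed by -1.36 ± 0.21 at the low dose (SE, adjusted p = 7.24e-06) and by -1.05 ± 0.21 at the high dose (SE, adjusted p = 2.14e-04). Scg2 changed by -0.94 ± 0.15 (SE, adjusted p = 1.92e-05) and -0.96 ± 0.15 (SE, adjusted p = 2.88e-06). The Vgf change at the high dose was -0.99 with the stretch as a block (adjusted p = 0.0557).

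At the low dose 3 of 9 genes were called in iSPN, all lower, where 4.18% of all genes were called (2.41% higher and 1.77% lower), and the third was Chgb. Chgb changed by -0.35 ± 0.11 (SE, adjusted p = 0.0435), and lost its call under 4 of 8 alternatives, among them the stretch as a block (-0.34, adjusted p = 0.123), and on leaving out any 1 of 8 of the 15 arrays. At the high dose 2 of 9 were called, both lower, where 9.86% were called (6.27% higher and 3.59% lower). Chgb changed there by -0.29 ± 0.11 (SE, adjusted p = 0.0646). It was called at that dose with the stretch as a random block, with array weights, after renewed quantile normalization and with the oligodendrocyte covariate. The median change of the 9 was -0.35 at the low dose and -0.20 at the high dose, against 5.91e-04 and 0.012 over all genes. Within a stretch, 8 low-dose and 4 saline arrays differed by -1.40 for Vgf and -0.97 for Scg2, and 8 high-dose and 2 saline arrays by -1.04 and -0.82. Pcsk1 changed by -0.50 ± 0.38 at the low dose (SE, adjusted p = 0.549) and by 0.51 ± 0.38 at the high dose (SE, adjusted p = 0.453). Chga changed by -0.24 ± 0.24 (SE, adjusted p = 0.670) and -0.42 ± 0.24 (SE, adjusted p = 0.295).

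The high and the low dose gave no call among the 9 genes in iSPN by limma, where 0.173% of all genes were called (0.113% higher and 0.0603% lower). At an unadjusted p under 0.05, 1 gene differed, Pcsk1, at 6.54 ± 0.72 at the high dose and 5.53 ± 1.17 at the low dose (SD, n = 8 each), a difference of 1.01 ± 0.36 (SE, adjusted p = 0.251). None was called under any of the 8 alternatives run. No stretch held high-dose and low-dose iSPN arrays together, so dose and stretch cannot be told apart here.

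**Figure D3:**
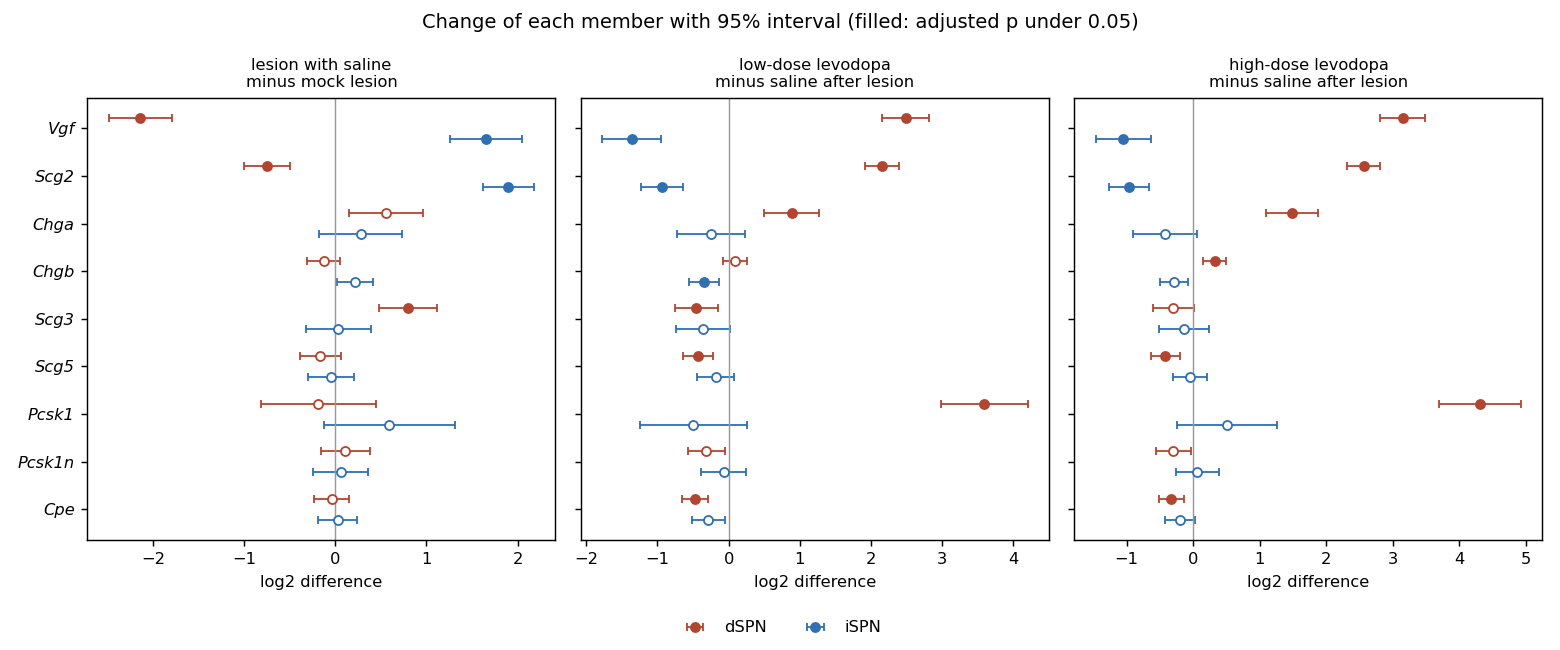
Log2 difference (horizontal axes) with its 95% interval for 9 genes (rows) in dSPN (red) and iSPN (blue), for lesion with saline minus mock lesion and for low-dose and high-dose levodopa minus saline after lesion. Filled points passed at an adjusted p under 0.05. Vgf and Scg2 stood on opposite sides of 0 in the 2 lines in all 3 panels, as at -2.14 in dSPN and 1.65 in iSPN for Vgf after lesion.

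The effect of levodopa differed between the lines for 5 of the 9 genes at each dose, all of them more positive in dSPN. At the low dose 14.8% of all genes were called for this difference (6.99% more positive in dSPN and 7.79% less so), and at the high dose 25% (10.5% and 14.5%). The low-dose differences were 4.09 ± 0.48 for Pcsk1 (SE, adjusted p = 4.69e-10), 3.85 ± 0.27 for Vgf (SE, adjusted p = 1.36e-19) and 3.09 ± 0.19 for Scg2 (SE, adjusted p = 8.88e-22). The high-dose differences of the same genes were 3.80 ± 0.49, 4.20 ± 0.27 and 3.52 ± 0.19 (SE, adjusted p of 2.62e-09 or below). Chga differed by 1.13 ± 0.31 and 1.91 ± 0.31 (SE) at the low and high dose, and Chgb by 0.43 ± 0.14 and 0.61 ± 0.14 (SE). The low-dose differences of Chga and Chgb were not called with the stretch as a block, where they were 1.21 and 0.46 (adjusted p = 0.0902 and 0.161), or with the oligodendrocyte covariate, where they were 0.71 and 0.22 (adjusted p = 0.166 and 0.380). That of Chgb was also lost without any 1 of 3 arrays, iSPN saline replicate 1 and iSPN low-dose replicates 2 and 3. The difference between lines was called for none of Scg3, Scg5, Pcsk1n and Cpe at either dose, with values of -0.37 to -0.10. With the oligodendrocyte covariate Scg5 was called at the high dose (-0.53, adjusted p = 0.0127).

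Set against mock-lesioned mice, which share their arrays with the lesion comparison, treated dSPN had higher levels of Scg2, Chga and Pcsk1. Vgf averaged 9.52 ± 0.28 at the low dose and 10.18 ± 0.31 at the high dose, against 9.17 ± 0.35 after mock lesion (SD, n = 12, 11 and 10). The low-dose group overlapped the mock-lesioned one and differed by 0.35 ± 0.17 (SE, adjusted p = 0.116), while the high-dose group lay wholly above it and differed by 1.01 ± 0.17 (SE, adjusted p = 1.53e-06). Scg2 exceeded mock by 1.40 ± 0.12 and 1.81 ± 0.13 (SE) at the low and high dose, Chga by 1.44 ± 0.20 and 2.05 ± 0.20 (SE), and Pcsk1 by 3.41 ± 0.31 and 4.13 ± 0.32 (SE), each with an adjusted p of 1.24e-08 or below. All treated arrays lay above all mock-lesioned arrays for these 3 genes, and the share of all genes that separate in this way was not computed.

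Scg5 differed from mock-lesioned dSPN by -0.59 ± 0.11 and -0.58 ± 0.11 (SE) at the low and high dose, and Cpe by -0.51 ± 0.09 and -0.36 ± 0.10 (SE), all called, while neither was called after lesion with saline. Scg3 was higher by 0.49 ± 0.16 at the high dose (SE, adjusted p = 0.0084), a call lost with the stretch as a block (0.42, adjusted p = 0.173). At the low dose 5 of 9 genes were called against mock lesion in dSPN, where 30.2% of all genes were called (12.5% higher and 17.7% lower). At the high dose 7 of 9 were called, where 43.4% were called (18.4% higher and 25% lower). Of the oligodendrocyte markers 8 and 9 of 10 were lower than in mock-lesioned dSPN at the low and high dose.

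In iSPN, Scg2 remained above mock lesion at both doses, by 0.96 ± 0.14 (SE, adjusted p = 2.37e-07) at the low dose and 0.94 ± 0.14 (SE, adjusted p = 2.10e-07) at the high dose, with no overlap. No stretch held low-dose and mock-lesioned iSPN arrays together, so drug and stretch cannot be told apart in that comparison. Only 1 mock-lesioned array shared a stretch with the high-dose arrays. Vgf exceeded mock by 0.29 ± 0.19 (SE, adjusted p = 0.368) at the low dose and by 0.60 ± 0.19 (SE, adjusted p = 0.0173) at the high dose, where 6 of 8 arrays lay above every mock-lesioned array. Pcsk1 at the high dose read 5.27, 6.69 and 7.40, against 3.43, 5.67 and 6.50 after mock lesion, with 5 of 8 arrays above every mock-lesioned one and a difference of 1.11 ± 0.35 (SE, adjusted p = 0.0163). Thus 1 of 9 genes was called at the low dose, where 11% of all genes were called (5.89% higher and 5.08% lower). At the high dose 3 of 9 were called, where 18.7% were called (10.4% higher and 8.27% lower).

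Some of these iSPN calls were lost under other settings. The Scg2 difference at the low dose was nearly as large with the stretch as a block (0.94, adjusted p = 0.118), and its call held under the other 7 alternatives. Vgf at the high dose was not called with the stretch as a block (0.64, adjusted p = 0.403), with the oligodendrocyte covariate (0.43, adjusted p = 0.178) or without high-dose replicate 2 or 4. Pcsk1 was not called with the stretch as a block (0.65, adjusted p = 0.718), with iSPN fitted alone (1.11, adjusted p = 0.0685), with the oligodendrocyte covariate (0.82, adjusted p = 0.159) or without mock-lesioned replicate 9. On the high-dose iSPN arrays 8 of 10 oligodendrocyte markers were lower than on the mock-lesioned ones, and the mean of 9 dSPN markers ran over 6.32 to 7.07, against 6.85 to 7.80. What these markers contribute to the differences was not tested beyond the covariate.

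**Figure D4:**
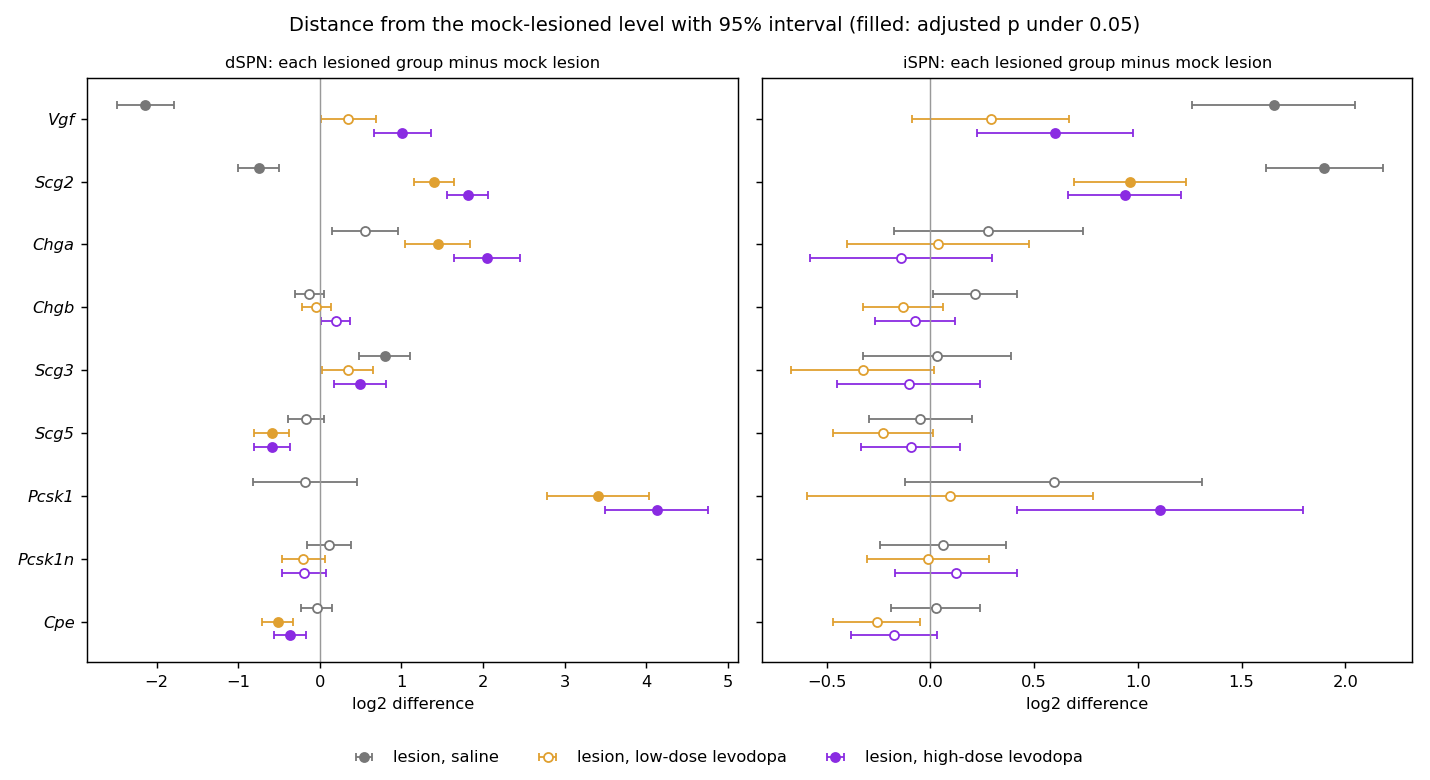
Log2 difference from mock-lesioned mice (horizontal axes, different scales) with its 95% interval for 9 genes (rows) in dSPN (left) and iSPN (right), for lesioned mice given saline (grey), low-dose levodopa (orange) and high-dose levodopa (purple). Filled points passed at an adjusted p under 0.05. Vgf in dSPN stood at -2.14 with saline, 0.35 at the low dose and 1.01 at the high dose, and Scg2 in iSPN at 1.90, 0.96 and 0.94.

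With dopamine intact, 3 of the 9 genes were called between the lines, too few to be read as a trait of the set. Over all genes 22.5% were called (11.6% higher in dSPN and 10.9% lower). Scg2 read 8.95, 9.81 and 10.00 on the 10 mock-lesioned dSPN arrays, against 7.84, 8.25 and 8.67 on the 10 mock-lesioned iSPN arrays, with no overlap and a difference of 1.39 ± 0.13 (SE, adjusted p = 5.99e-14). Vgf averaged 9.17 ± 0.35 in dSPN and 8.31 ± 0.32 in iSPN (SD), a difference of 0.86 ± 0.18 (SE, adjusted p = 1.72e-04), with 9 of 10 dSPN arrays above every iSPN array. Pcsk1n was higher in dSPN by 0.43 ± 0.14 (SE, adjusted p = 0.0158), a call lost with the oligodendrocyte covariate (0.24, adjusted p = 0.352). Pcsk1 and Chga differed by -2.66e-04 ± 0.33 and 0.01 ± 0.21 (SE). The line and the stretch of array numbers cannot be told apart in this comparison.

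Ordered by group mean, the 4 genes with the widest span were ranked differently. Pcsk1 spanned 4.31, from 9.56 in high-dose dSPN and 8.84 in low-dose dSPN down to 6.54 in high-dose iSPN and 5.25 to 6.03 in the other 5 groups, and the arrays of these 6 groups overlapped. Scg2 spanned 3.20, with high-dose and low-dose dSPN (11.48 and 11.06) at the top, then lesioned iSPN (10.17), mock-lesioned dSPN (9.66), low-dose and high-dose iSPN (9.24 and 9.21), lesioned dSPN (8.91) and mock-lesioned iSPN (8.27). Vgf spanned 3.15, with high-dose dSPN (10.18) and lesioned iSPN (9.96) at the top, whose arrays overlapped, and lesioned dSPN (7.03) at the bottom. Chga spanned 2.20, with high-dose dSPN (10.44) and low-dose dSPN (9.84) at the top and the other 6 groups between 8.24 and 8.95.

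The genes whose 8 group means followed these most closely were named by Pearson correlation, as a description over 8 points that share arrays and normalization. They were Nipa2 (0.97), Mcoln1 (0.95) and Thbs3 (0.94) for Vgf, and Mcemp1 (0.99), Dnajc5b (0.98) and Rbp4 (0.98) for Scg2. For Chga they were Plekhb2, Tmem255a and Spns3 (0.99 each), and for Pcsk1 they were Tinf2, 2310034O05Rik and Fndc9 (0.99 each). None of the other 8 genes of the set was among them. A high correlation here does not mean a change of like size. The group means of the named genes spanned from 0.24 (Spns3) to 5.48 (Tinf2). Within groups, over the 77 arrays after the group means were taken out, Scg5 and Chgb had the closest relation (r = 0.65), followed by Chgb and Pcsk1n (0.53), Scg5 and Pcsk1n (0.53) and Chga and Chgb (0.52). Vgf and Scg2 gave 0.46, and Vgf and Chga 0.02. These values also carry what differs between arrays as a whole.

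The wider peptide pathway was read from 5 lists of other genes. Of 5 tested proprotein convertases outside the set, Furin, the convertase of the Golgi and the constitutive route, rose in dSPN by 0.94 ± 0.15 at the low dose (SE, adjusted p = 6.76e-07) and 1.18 ± 0.16 at the high dose (SE, adjusted p = 1.45e-09). Mbtps1, the site-1 protease of the Golgi, fell by 0.85 and by 1.21 on the log2 scale. Neither was called in iSPN after levodopa, where Pcsk7 rose by 0.67 ± 0.19 (SE, adjusted p = 0.0259) at the low dose and 0.77 ± 0.19 (SE, adjusted p = 0.0041) at the high dose.

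Among 9 tested genes of peptide trimming and amidation, 1 rose and 2 fell at the low dose in dSPN, and 3 rose and 2 fell at the high dose, where 34.1% and 45.6% of all genes were called. Qpct, which forms the pyroglutamyl end of peptides such as neurotensin, was lower with levodopa in both lines, by -0.67 ± 0.20 and -0.85 ± 0.21 (SE) in dSPN and by -1.13 ± 0.25 and -1.01 ± 0.25 (SE) in iSPN at the low and high dose. Pam, the enzyme that amidates peptide ends, rose in iSPN after lesion by 1.12 ± 0.24 (SE, adjusted p = 0.0012). It was the only called gene of the 9 there, where 6.2% of all genes were called.

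Of 31 tested genes of dense core vesicle formation and release, none was called in dSPN after lesion by limma, where 2.48% of all genes were called. In iSPN 4 of the 31 rose after lesion, where 3.19% of all genes rose. These 4 were Syt10 (1.91 ± 0.31, SE), a calcium sensor of vesicle release, Ptprn (0.70 ± 0.19, SE), a membrane protein of dense core vesicles, Rph3a and Rab27b. In dSPN, 5 rose and 5 fell at the low dose, and 4 rose and 9 fell at the high dose, shares near the 34.1% and 45.6% called over all genes. Syt10 rose by 1.44 ± 0.26 and 2.08 ± 0.27 (SE) at the low and high dose and Syt4 by 0.43 ± 0.09 and 0.90 ± 0.10 (SE), while Rab2b fell. The median change of the list was -0.10 and -0.07, against -0.04 over all genes. In iSPN, Syt10 fell by 1.25 ± 0.32 (SE, adjusted p = 0.0120) at the low dose.

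Peptide precursors are the other cargo of such vesicles. Of 18 tested, 5 rose and none fell at the low dose in dSPN, where 15.1% of all genes rose and 19% fell. At the high dose 7 rose and none fell by limma, where 20.1% of all genes rose and 25.5% fell. Nts, the neurotensin precursor, rose by 1.63 ± 0.29 and 2.77 ± 0.30 (SE), and Pdyn, the prodynorphin gene, by 1.61 ± 0.22 and 2.10 ± 0.22 (SE). Cartpt rose by 1.97 ± 0.33 and 1.92 ± 0.34 (SE). In lesioned iSPN 3 rose and 2 fell, where 3.19% of all genes rose and 3.01% fell. Among the called precursors were Cartpt (3.89 ± 0.39, SE) and Nts (2.60 ± 0.34, SE), which were higher, and Pdyn (-0.99 ± 0.26, SE), a dSPN marker, which was lower. The median change of this list in dSPN was 0.11 at the low dose and 0.43 at the high dose.

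Enzymes that degrade peptides outside the cell or in the cytosol went both ways. Of 11 tested, 2 rose and 3 fell at the low dose in dSPN, and 3 rose and 3 fell at the high dose, where 34.1% and 45.6% of all genes were called. Ece1 rose by 0.65 ± 0.13 and 0.98 ± 0.13 (SE) and Mme, the gene of neprilysin, fell by 0.71 ± 0.18 and 0.95 ± 0.18 (SE). In iSPN, Mme was 1 of 11 called after lesion, at -1.02 ± 0.21 (SE, adjusted p = 6.39e-04), where 6.2% of all genes were called.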

How the data were processed

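The authors deposited log2 expression values for each probe set of the Affymetrix Mouse Genome 430 2.0 array, made with RMA in the affy package, per the submitters' processing notes, whose versions are not given in the sources used here. All 77 arrays were used in 8 groups by line, surgery and drug as the labels give them. Arrays came from single animals, so p-values measure the spread between mice, with a precision limited by the number of arrays.

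Of 45101 probe sets, 34958 had a single gene symbol. A gene was read from its probe set with the highest mean, and genes above the 40th percentile of probe set means (3.55) were tested. Group means were fitted with limma 3.58.1 in R 4.3.3 over all arrays (69 residual degrees of freedom), in 16 comparisons that include the difference between lines. Adjusted p is Benjamini-Hochberg over all 13271 genes tested within a comparison, with a call at 0.05, and it comes from limma wherever printed. The fit was tested on simulated data. Genes outside the set were taken from up to 4 of the largest called changes of each list and, for likeness, as the 3 with the highest correlation of group means. The members and the lists of other genes were chosen with earlier results of these data known.

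Alternatives were the stretch of array numbers as a fixed or random block, each line fitted alone, array weights, no filter, the mean of all probe sets of a gene, renewed quantile normalization and the oligodendrocyte covariate. Leaving out each array in turn was added after seeing the data.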

Additional observations from a re-analysis of the deposited data

Results flagged for a closer look

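Chgb in mock-lesioned dSPN had 1 array, replicate 5, at 11.28, with the nearest of the other 9 at 11.56, a gap of 0.538 of the group's whole range. It was the only such gap among 45 sets of values examined, the 9 genes in each of the 5 groups of 7 to 10 arrays, where chance gives about 1 in 20. The 3 groups of 11 or 12 arrays were not examined.

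The effect of lesion differed between dSPN and iSPN, by a test of the difference, for Vgf (-3.79, from -2.14 in dSPN and 1.65 in iSPN), Scg2 (-2.65, from -0.75 in dSPN and 1.90 in iSPN) and Scg3 (0.77, from 0.80 in dSPN and 0.03 in iSPN). The effect of low-dose levodopa differed for Pcsk1 (4.09, from 3.59 in dSPN and -0.50 in iSPN), Vgf (3.85, from 2.49 and -1.36), Scg2 (3.09, from 2.15 and -0.94), Chga (1.13, from 0.88 and -0.24) and Chgb (0.43, from 0.08 and -0.35). The effect of high-dose levodopa differed for Vgf (4.20, from 3.15 in dSPN and -1.05 in iSPN), Pcsk1 (3.80, from 4.31 and 0.51), Scg2 (3.52, from 2.56 and -0.96), Chga (1.91, from 1.49 and -0.42) and Chgb (0.61, from 0.32 and -0.29).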

How the results depend on the processing

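Of 123 counts of called genes under the alternatives, 115 stayed within 1.5 times the reported count. With the stretch as a fixed block the count was 0 for high against low dose in dSPN (3 reported), 1 for the high dose against saline in iSPN (2), 0 and 1 for the low and high dose against mock lesion in iSPN (1 and 3), and 3 for the low-dose difference between lines (5). With it as a random block the count was 2 for the low dose against mock lesion in iSPN. With the oligodendrocyte covariate it was 1 for the high dose against mock lesion in iSPN and 3 for the low-dose difference between lines. Leaving out 1 array at a time gave 3 to 3 calls after lesion, 7 to 8 at either dose against saline, 1 to 3 for high against low dose (1 without high-dose replicate 10), 5 to 6 and 7 to 8 against mock lesion in dSPN. In iSPN it gave 2 to 2 after lesion, 2 to 3 at either dose against saline, 0 to 0 for high against low dose, and 1 to 1 and 2 to 3 against mock lesion. The differences between lines gave 2 to 3 for lesion, 4 to 5 and 5 to 5 for the low and high dose, and 3 to 4 under mock lesion.

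Of 1107 values of single genes, 1022 kept their side, 30 lost a call, 28 gained one and 27 changed sign, none of the 27 with a call in either fit. With the fixed block these were Scg3 (-0.36) and Pcsk1n (-0.0757) after lesion and Pcsk1n (-0.11) at the high dose against saline in iSPN, Scg2 (0.0857), Scg5 (-0.11), Chga (0.0774) and Pcsk1n (-0.0907) for high against low dose in iSPN, Chga (0.20) and Pcsk1n (-0.19) for the high dose against mock lesion in iSPN, and the differences between lines of Scg5 after lesion (0.0652) and Scg3 at the low dose (0.10). With the oligodendrocyte covariate they were Chgb at the low dose against saline (-0.12), Scg5 (-0.0196) and Pcsk1n (-0.0143) for high against low dose in dSPN, Pcsk1n at the high dose against saline (-0.0405), Chgb for high against low dose (-0.0468), Chga (-0.0319) at the low and Pcsk1n (-0.0258) at the high dose against mock lesion in iSPN, and Chga between mock-lesioned lines (-0.32). Scg5 for high against low dose in dSPN was -0.0040 with the random block, -0.0075 with array weights and -0.014 after quantile normalization, where Pcsk1n was -0.011 and Pcsk1 between mock-lesioned lines 0.011. Array weights gave Chgb for high against low dose -5.68e-05 and Pcsk1n at the low dose against mock lesion 0.0287 in iSPN, and the mean of probe sets gave Cpe 0.0183 for the high-dose difference between lines. The causes were not tested.

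No paired analysis was possible because the labels give the groups no shared replicate numbers. Line and stretch cannot be told apart, and dSPN at the low dose shared no stretch with saline. In iSPN the low-dose arrays shared no stretch with the high-dose or the mock-lesioned arrays. Renewed quantile normalization shifted the median gene by 0.017 at most.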
